A study of Mus musculus with 10 samples.

Results

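The RNAs described here belong to the DBHS family of nuclear RNA-binding proteins (Sfpq, Nono and Pspc1) and to genes grouped with them around the paraspeckle: the noncoding RNAs Neat1 and Malat1 and the protein genes Matr3, Rbm14, Rnf112, Dazap1 and Ccar2. Members were taken by gene symbol. Every RefSeq transcript record of a member that the data hold was kept as a row of its own, with coding (NM_) and noncoding (NR_) records apart. This gave 14 rows of 10 genes, out of 30978 rows in each file. Pspc1, Neat1, Rnf112 and Dazap1 have further RefSeq records with no row in these data. Levels are given in RPKM, the reads of a row divided by its length in kilobases and scaled to the size of the library; being per length, they can be compared between genes.

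The cells were Neuro-2a, a mouse neuroblastoma line, under what the labels call a differentiated condition, and all of them were transfected with RNAiMAX in medium with 2% serum. Tested cultures received siRNA for mouse Sfpq, and control cultures received siRNA for luciferase (Luc), which these cells do not have. Sequencing covered 3 Sfpq and 3 Luc libraries of poly(A)-selected RNA, and 1 Sfpq and 1 Luc library made after removal of ribosomal RNA (rRNA-depleted). RNA polymerase II chromatin immunoprecipitation was not analysed here. Since no label states that the replicates were separate cultures, a p-value here reflects library-to-library spread alone, and that spread could be technical.

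The lowest steps between RPKM values of short genes gave an estimated depth between 15200000 reads (Sfpq replicate 1) and 30900000 reads (Luc replicate 3) in poly(A) libraries. In rRNA-depleted RNA it was 64200000 reads in the Sfpq and 63800000 reads in the Luc library. Of 9 neuroblastoma markers, 8 were at 1 RPKM or more in all 6 poly(A) libraries, and the other, Dbh, lay between 0.763 and 1.61 RPKM. Their summed level was 441 to 454 RPKM in Sfpq and 519 to 578 RPKM in Luc libraries, but the markers did not move as one. Stmn2, Hand2, Isl1, Elavl4 and Mycn were lower in every Sfpq than in every Luc library, Chga (127 to 141 RPKM in Sfpq, 68.6 to 89.7 RPKM in Luc), Gata3 and Dbh were higher, and Phox2a overlapped. The part of these shifts in the results below was not tested. All 15 markers found for fibroblasts, astrocytes, leukocytes and oligodendrocytes stayed under 1 RPKM in these libraries, with Aqp4, Csf1r and Mog at 0. Luc replicate 3 correlated at 0.984 and 0.978 with the other Luc libraries (across 16793 rows), which correlated at 0.996 with each other.

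DBHS proteins pair with one another through a shared core of RNA-recognition motifs and a coiled coil, and act in transcription, splicing and the retention of RNA in the nucleus. Paraspeckles are nuclear bodies built on the long form of Neat1 RNA, onto which DBHS proteins assemble; the short form of Neat1 starts at the same place and ends early with a poly(A) tail. Malat1, transcribed from the neighbouring gene, collects in a different body, the nuclear speckle. Sfpq is abundant in neurons, and in human genetics several of its partners, Matr3 among them, are linked to motor neuron disease.

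In poly(A) RNA, 7 of the 14 rows (6 genes: Nono, Pspc1, Matr3, Rbm14, Rnf112 and Ccar2) were higher in Sfpq than in Luc libraries, 3 rows (Sfpq and Neat1) were lower, and 4 rows (Malat1 and Dazap1) did not pass (limma, a linear model with a shared estimate of the spread, on log2(RPKM + 0.5), Benjamini-Hochberg adjusted p under 0.05 over 16793 rows). Of all tested rows, 21.6% were higher, 19.3% lower and 40.9% changed in either direction by the same test. The median log2 fold change was 0.15 over the member rows and 0.05 over all tested rows. All 14 member rows passed the filter of a mean of 0.5 RPKM. All 3 Sfpq libraries lay above all 3 Luc libraries for 7 member rows, both Nono rows among them. The 2 rows wholly below were both of Sfpq, the siRNA target. Over all tested rows, 27.9% lay wholly above and 25.2% wholly below. Members were chosen with earlier results of these data known, so an excess over these shares is not a test of the family. Fold changes from limma refer to log2(RPKM + 0.5), so those of low rows come out too small. In RNA from whole cultures, fewer cells with an RNA and less RNA per cell cannot be told apart.

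**Figure D1:**
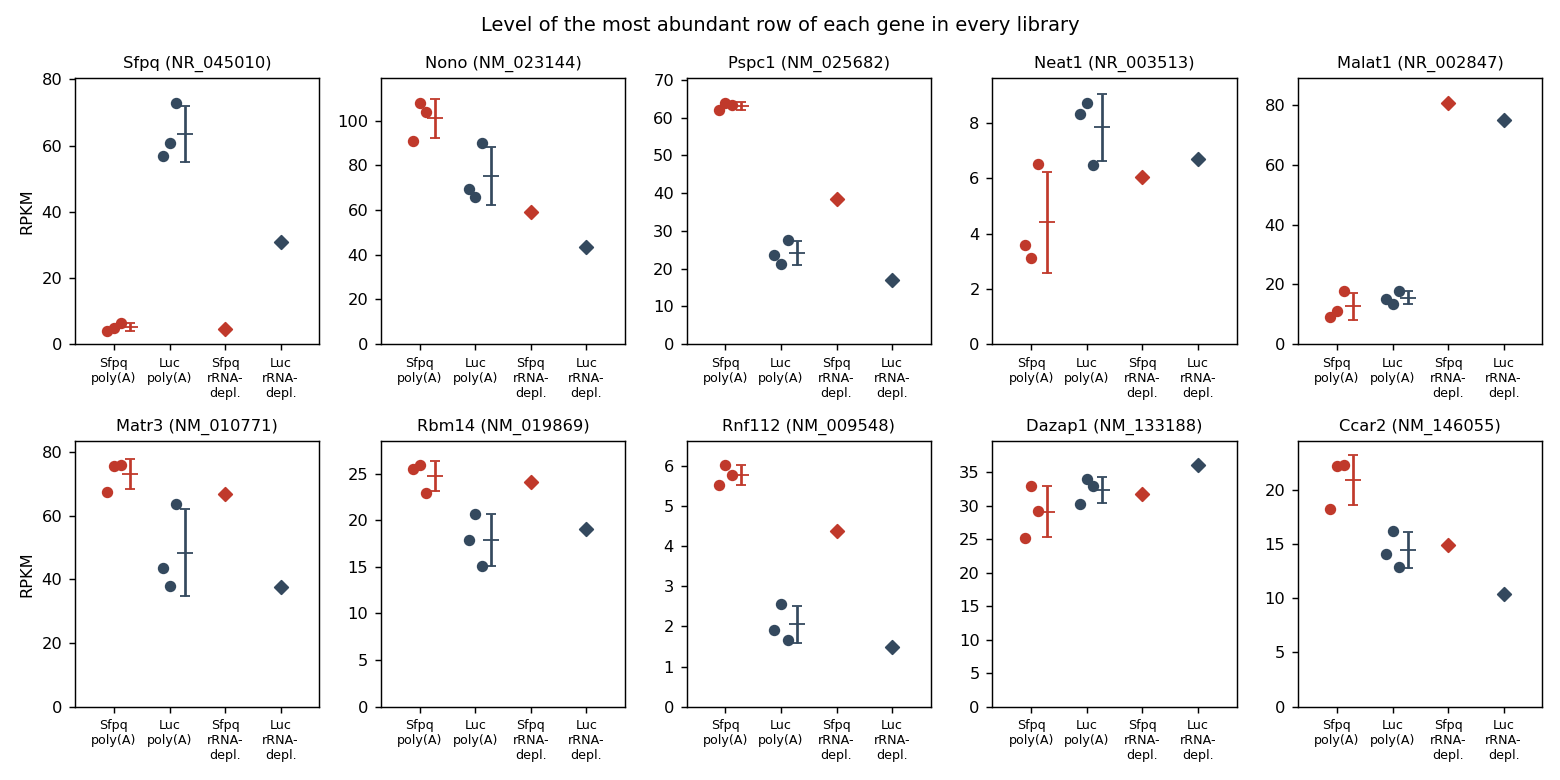
RPKM of the most abundant row of each of the 10 genes in every library, with Sfpq libraries in red and Luc libraries in dark blue; circles are poly(A) libraries with mean and SD beside them (n = 3), and diamonds are single rRNA-depleted libraries. Pspc1 and Rnf112 lie clearly higher in all Sfpq libraries, Neat1 and Malat1 overlap between the groups, and Malat1 lies far higher in rRNA-depleted RNA.

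Sfpq, the target of the siRNA, had 2 rows, and both were low in every Sfpq library. The coding row NM_023603 had 3.34, 3.90 and 5.29 RPKM in Sfpq libraries, against 42.0, 44.4 and 57.5 RPKM in Luc libraries. The noncoding row NR_045010 had 3.98, 4.75 and 6.47 RPKM in Sfpq libraries, against 56.8, 60.8 and 73.0 RPKM in Luc libraries. The groups were thus far apart in both records. The Sfpq mean was 8.70% of the Luc mean for the coding row (log2 fold change -3.38, SE 0.17, limma adjusted p = 1.12e-06) and 7.97% for the noncoding row (-3.54, SE 0.17, limma adjusted p = 7.87e-07).

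A larger part of the Sfpq signal was left in rRNA-depleted RNA. The coding row had 4.98 RPKM in the Sfpq library and 28.5 RPKM in the Luc library, which is 17.5%, and the noncoding row had 4.43 and 30.8 RPKM in these libraries, which is 14.4%. The log2 ratios of -2.40 and -2.67 lay above all 9 poly(A) ratios of 1 Sfpq to 1 Luc library, which ran from -3.92 to -2.88 for the coding and from -4.04 to -3.04 for the noncoding row. These were the only 2 of the 14 rows whose rRNA-depleted ratio fell outside the poly(A) range. The share of all rows outside their own range was not computed, so whether 2 of 14 is unusual is not known. With 1 library per group the difference was not tested. In the gene table used for names, the gene Zmym1 overlaps the span of Sfpq, and the files do not say whether counting used strand.

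The coding row stood closer to the noncoding row in Sfpq than in Luc libraries of poly(A) RNA. The RPKM of NM_023603 was 83.8%, 82.0% and 81.8% of that of NR_045010 in Sfpq libraries, against 73.9%, 73.1% and 78.8% in Luc libraries. All 3 Sfpq values lay above all 3 Luc values. With 0.5 RPKM added to each row, the mean log2 ratios differed by 0.16 (two-sided exact permutation test, p = 0.1, the smallest that 3 against 3 libraries allow). The size depended on the amount added: it was 0.14 with 0.1 RPKM and 0.18 with 1 RPKM. In rRNA-depleted RNA the coding row was at 112% of the noncoding row in the Sfpq and 92.6% in the Luc library. The coding row was thus the higher of these 2 rows in the rRNA-depleted Sfpq library and the lower in the 7 others. Records of one gene share exons, and a read may have been counted for both.

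**Figure D2:**
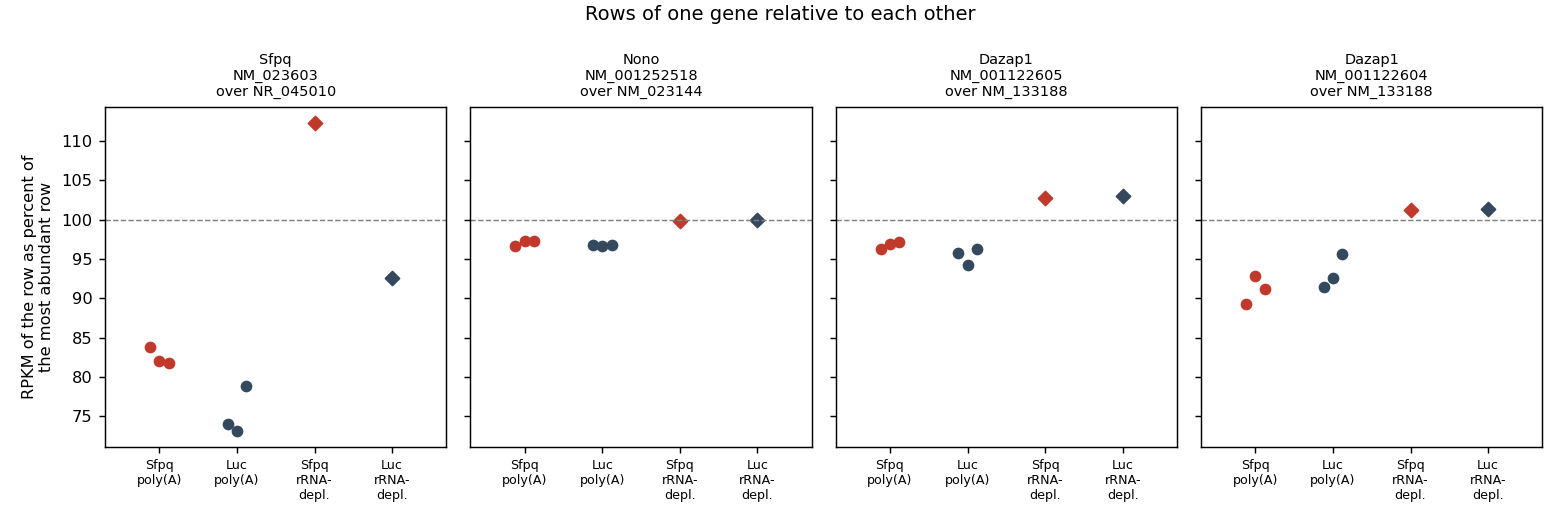
RPKM of each further row of Sfpq, Nono and Dazap1 as a percentage of the gene's most abundant row, per library (Sfpq in red, Luc in dark blue; circles poly(A), diamonds rRNA-depleted; the dashed line marks equal values). The Sfpq rows differ between the siRNAs in both preparations, while the ratios of Nono and Dazap1 overlap between the siRNAs in poly(A) RNA.

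Pspc1 and Nono, the partners that pair with Sfpq, were both higher after Sfpq siRNA. Pspc1 (row NM_025682) had 62.1, 64.0 and 63.3 RPKM in Sfpq libraries, against 23.5, 21.3 and 27.4 RPKM in Luc libraries. The Sfpq libraries lay within 2 RPKM of each other and the groups were far apart. Pspc1 was 2.62-fold higher by the means (log2 fold change 1.38, SE 0.11, limma adjusted p = 1.91e-05). The rRNA-depleted libraries gave it 38.5 RPKM in the Sfpq and 16.9 RPKM in the Luc library, a ratio of 2.28.

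Nono had 2 coding rows that behaved alike. Row NM_023144 had 91.0, 108 and 104 RPKM in Sfpq libraries, against 69.6, 65.8 and 90.1 RPKM in Luc libraries. The groups did not overlap, but Luc replicate 3 lay just under the lowest Sfpq library. The log2 fold change was 0.43 (SE 0.13, limma adjusted p = 0.0283) for this row and 0.44 (SE 0.14, limma adjusted p = 0.0276) for NM_001252518. The Nono calls ended with no filter on low values or when Sfpq replicate 2 or 3 or Luc replicate 1 or 2 was left out; for NM_023144 the limma adjusted p over all alternatives ran from 0.000324 to 0.112 and the log2 fold change from 0.34 to 0.57. The second row was 96.6% to 97.3% of the first in Sfpq and 96.6% to 96.7% in Luc libraries (exact permutation test, p = 0.4). In rRNA-depleted RNA, NM_023144 had 59.1 RPKM in the Sfpq and 43.5 RPKM in the Luc library, a ratio of 1.36.

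The make-up of the family followed from these levels. Sfpq made up 2.54%, 2.69% and 3.73% of the summed DBHS RPKM in Sfpq libraries, against 37.9%, 41.1% and 38.3% in Luc libraries. Nono made up 59.6% ± 1.60 in Sfpq and 46.1% ± 1.44 in Luc libraries (SD, n = 3 each). Pspc1 made up 37.4% ± 1.86 in Sfpq and 14.8% ± 0.743 in Luc libraries (SD, n = 3 each). For each of these shares the groups did not overlap (two-sided exact permutation test, p = 0.1, the smallest possible here). A share falls or rises with the others by construction, and Sfpq was the target. The rise in the Nono share, 13.6 percentage points, was 8.94 when the highest coding row stood for each gene.

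The sum of the family and the ratio of Pspc1 to Nono do not rest on shares. The sum was 157, 177 and 174 RPKM in Sfpq libraries and 150, 148 and 191 RPKM in Luc libraries, and the groups overlapped (means 169 ± 10.6 and 163 ± 24.1 RPKM, SD, n = 3 each; two-sided exact permutation test, p = 0.8). The difference of 6.36 RPKM in the means depended on the libraries and rows used: it was 20.2 RPKM without Luc replicate 3, -1.08 RPKM without Luc replicate 2 and -0.08 RPKM without Luc replicate 1, and 21.0 RPKM with the highest coding row of each gene. Pspc1 stood at 0.682, 0.592 and 0.609 times the Nono level in Sfpq libraries, against 0.338, 0.324 and 0.304 times in Luc libraries (exact permutation test, p = 0.1, the smallest possible). In rRNA-depleted RNA the Pspc1 to Nono ratio was 0.652 in the Sfpq and 0.388 in the Luc library, and the sum was 102 and 91.2 RPKM in these libraries.

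**Figure D3:**
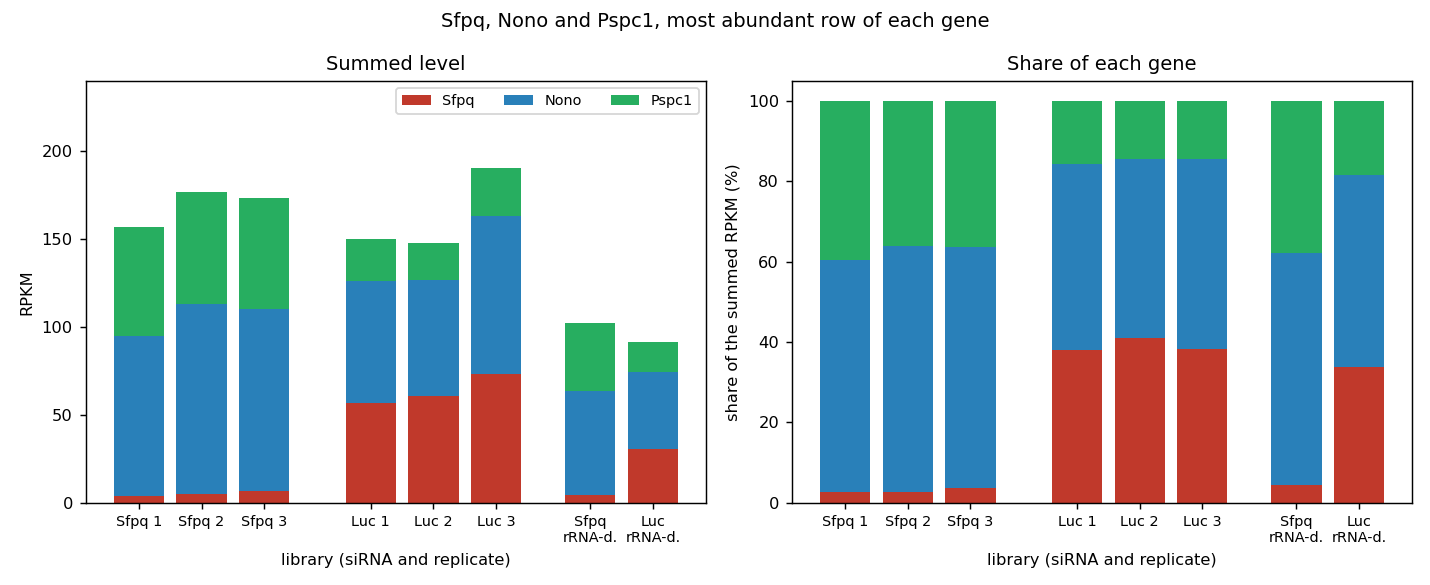
Stacked RPKM (left) and share of the sum (right) of Sfpq, Nono and Pspc1, most abundant row of each gene, in every library, with rRNA-depleted libraries at the right (rRNA-d.). Summed levels overlap between the siRNAs (157 to 177 RPKM in Sfpq and 148 to 191 RPKM in Luc poly(A) libraries), while the Sfpq share lies at 2.54% to 3.73% in Sfpq and 37.9% to 41.1% in Luc libraries.

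The stretches just before the transcription start of the 3 family genes are shown because the genes encode partners of one complex. Sfpq, the gene that fell, was the target of the siRNA, and a link between these sequences and the changes was not tested. Each is the 250 bases upstream of the start, from RefSeq (build GRCm38.p6, a different build from that of the files), in the direction of transcription, with the 5-letter CCAAT motif, on either strand, in capitals. Sfpq lies at chr4:127021051-127021300 (plus strand), Nono at chrX:101429401-101429650 (plus strand) and Pspc1 at chr14:56778319-56778568 (minus strand).
Sfpq: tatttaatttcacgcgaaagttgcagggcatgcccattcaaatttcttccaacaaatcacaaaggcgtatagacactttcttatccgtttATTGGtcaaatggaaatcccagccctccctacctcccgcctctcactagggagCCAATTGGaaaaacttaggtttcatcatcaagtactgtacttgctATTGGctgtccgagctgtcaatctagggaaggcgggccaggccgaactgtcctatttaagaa
Nono: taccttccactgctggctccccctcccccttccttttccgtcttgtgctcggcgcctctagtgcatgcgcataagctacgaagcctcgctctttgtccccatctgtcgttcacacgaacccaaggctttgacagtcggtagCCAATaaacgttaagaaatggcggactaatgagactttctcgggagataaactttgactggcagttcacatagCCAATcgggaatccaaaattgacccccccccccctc
Pspc1: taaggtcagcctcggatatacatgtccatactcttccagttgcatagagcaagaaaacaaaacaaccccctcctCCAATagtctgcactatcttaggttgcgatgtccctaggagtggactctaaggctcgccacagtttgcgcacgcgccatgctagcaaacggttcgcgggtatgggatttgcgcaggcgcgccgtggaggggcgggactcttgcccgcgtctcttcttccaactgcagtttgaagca

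CCAAT was found at 4 places before Sfpq, of which 2 overlap in one palindrome, at 2 before Nono and at 1 before Pspc1. Of 32851 RefSeq windows of this length, 33.8% held CCAAT on either strand. GGGCGG, the GC box, was found once before Pspc1 and not before Sfpq or Nono, and 32.7% of windows held it. TATAAA was found in none of the 3 windows, and 12.4% of all windows held it. Sfpq had the lowest GC content, at 45.2%, with 53.2% for Nono and 54.4% for Pspc1.

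Neat1, the scaffold RNA of paraspeckles, was measured by 1 row, NR_003513, so its short and long forms cannot be told apart. Another RefSeq record of Neat1 has no row in these data and was not measured. It had 3.60, 3.13 and 6.51 RPKM in Sfpq libraries, against 8.33, 8.75 and 6.47 RPKM in Luc libraries. Sfpq replicates 1 and 2 lay below every Luc library, but Sfpq replicate 3 lay at the level of Luc replicate 3, so the groups overlapped. The row was called lower (log2 fold change -0.82, SE 0.23, limma adjusted p = 0.018), and the call ended with no filter on low values (limma adjusted p = 0.0615), without Sfpq replicate 1 (-0.72), without Sfpq replicate 2 (-0.63) or without Luc replicate 1 (-0.77); over all alternatives limma adjusted p ran from 0.00142 to 0.0831.

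In rRNA-depleted RNA, Neat1 had 6.05 RPKM in the Sfpq and 6.71 RPKM in the Luc library, a log2 ratio of -0.14 that lay within the poly(A) range of -1.35 to 0.01. About 54.8, 88.4 and 170 reads per kilobase stood behind the poly(A) values in Sfpq libraries, against 202, 241 and 199.9 in Luc libraries. In the rRNA-depleted libraries these were 388 and 428 reads per kilobase for Sfpq and Luc.

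Malat1 (NR_002847), the RNA of nuclear speckles, had 9.07, 11.1 and 17.7 RPKM in Sfpq libraries, against 15.0, 13.6 and 17.8 RPKM in Luc libraries. As for Neat1, Sfpq replicate 3 was the highest of its group and reached the Luc range. The difference did not pass the test (log2 fold change -0.33, 95% interval -0.81 to 0.15, limma adjusted p = 0.247), and without Sfpq replicate 3 the row was called lower (-0.59, limma adjusted p = 0.0251; range over all alternatives 0.0251 to 0.674). In rRNA-depleted RNA it had 80.9 RPKM in the Sfpq and 75.3 RPKM in the Luc library, a log2 ratio of 0.10. The small RNA Mascrna, which is cut from the end of the Malat1 transcript, overlaps it in the gene table.

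Of the other protein genes, Rnf112 had the largest fold change. It encodes a RING-finger GTPase known from brain, and its row NM_009548 had 5.52, 6.01 and 5.77 RPKM in Sfpq libraries, against 1.91, 2.57 and 1.67 RPKM in Luc libraries. The lowest Sfpq library was more than 2 times the highest Luc library. The rise was 2.81-fold by the means (log2 fold change 1.31, SE 0.14, limma adjusted p = 0.000103), and rRNA-depleted RNA had 4.38 RPKM in the Sfpq and 1.48 RPKM in the Luc library. Between 46.2 and 70.8 reads per kilobase stood behind the Luc values and between 83.9 and 169.9 behind the Sfpq values.

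Matr3 encodes matrin 3, an RNA-binding protein of the nuclear matrix that associates with Sfpq and Nono. Its row NM_010771 had 67.5, 75.8 and 75.9 RPKM in Sfpq libraries, against 43.5, 38.0 and 63.8 RPKM in Luc libraries. Luc replicate 3 stood between the other Luc libraries and the Sfpq libraries. The row was called higher (log2 fold change 0.62, SE 0.17, limma adjusted p = 0.0174), a call that ended with no filter on low values and without Sfpq replicate 2 (0.59), Sfpq replicate 3 (0.59) or Luc replicate 1 (0.56); over all alternatives limma adjusted p ran from 2.03e-05 to 0.0618. In rRNA-depleted RNA it had 67.0 RPKM in the Sfpq and 37.6 RPKM in the Luc library, a ratio of 1.78.

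Rbm14 encodes a paraspeckle protein and coactivator that is needed for intact paraspeckles in human cells. Its row NM_019869 had 25.5, 25.9 and 22.9 RPKM in Sfpq libraries, against 17.8, 20.7 and 15.1 RPKM in Luc libraries. The groups did not overlap. The log2 fold change was 0.47 (SE 0.13, limma adjusted p = 0.0163), and the call ended without Sfpq replicate 1 (0.45) or Sfpq replicate 2 (0.44), with limma adjusted p from 0.00591 to 0.0708 over all alternatives. In rRNA-depleted RNA it had 24.1 RPKM in the Sfpq and 19.1 RPKM in the Luc library, a ratio of 1.26. The gene Gm21992 overlaps Rbm14 in the gene table, so reads may belong to either.

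Ccar2 encodes a coregulator that forms, with the product of Zfp326, a complex acting on splicing and elongation in human cells. Its row NM_146055 had 18.2, 22.2 and 22.3 RPKM in Sfpq libraries, against 14.1, 16.2 and 12.9 RPKM in Luc libraries. The groups did not overlap, and the call (log2 fold change 0.52, SE 0.13, limma adjusted p = 0.00894) held under all 16 alternatives, with limma adjusted p from 0.00466 to 0.048. In rRNA-depleted RNA it had 14.9 RPKM in the Sfpq and 10.4 RPKM in the Luc library, a ratio of 1.43.

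Dazap1 encodes an RNA-binding protein of splicing and translation that has been placed in paraspeckles. Its 3 coding rows overlapped between the groups; the most abundant, NM_133188, had 25.2, 32.9 and 29.2 RPKM in Sfpq libraries, against 30.2, 34.0 and 33.0 RPKM in Luc libraries. None of the 3 rows passed the test, with log2 fold changes of -0.16, -0.14 and -0.19 and limma adjusted p = 0.316, 0.384 and 0.261. The 95% intervals of the 3 log2 fold changes ran from -0.48 to 0.13 in all, so a fall of up to 0.48 log2 units is within them. The other 2 rows stood between 89.2% and 97.1% of NM_133188 in Sfpq and between 91.4% and 96.3% in Luc libraries, and these ratios did not separate the siRNAs (exact permutation tests, p = 0.2 and p = 0.4). In rRNA-depleted RNA NM_133188 had 31.7 RPKM in the Sfpq and 36.1 RPKM in the Luc library.

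**Figure D4:**
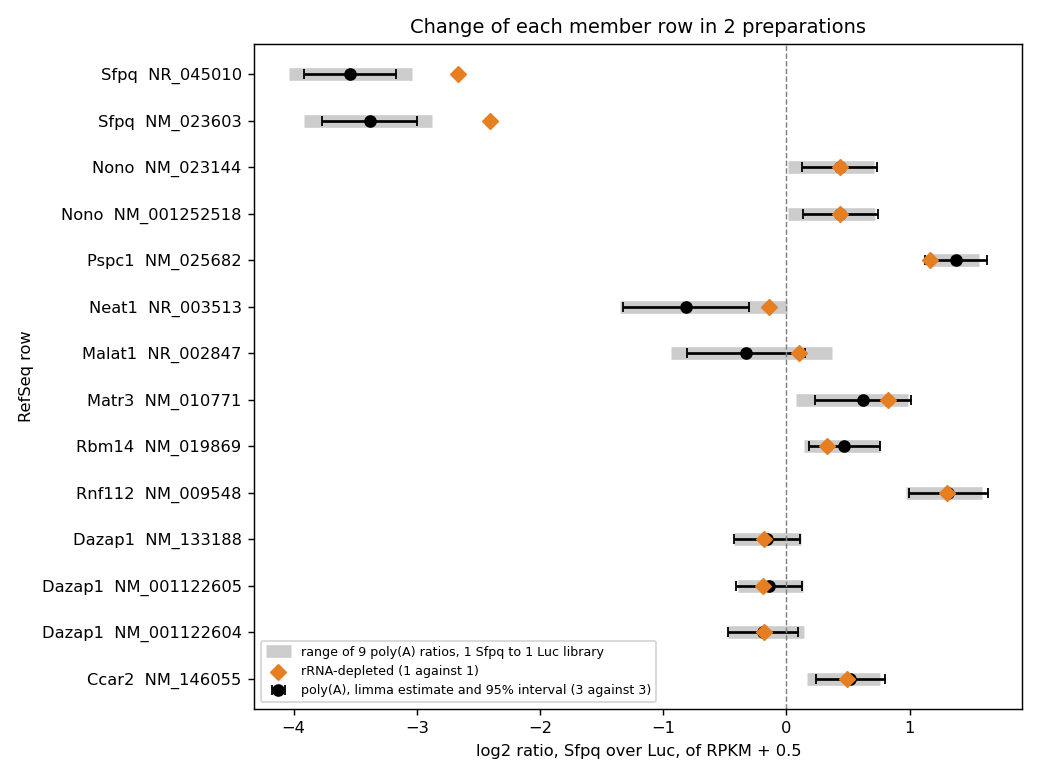
Log2 ratio of Sfpq over Luc for each of the 14 rows: black circles with 95% intervals are limma estimates in poly(A) RNA (3 against 3 libraries), grey bars span the 9 ratios of 1 Sfpq to 1 Luc library, and orange diamonds are the rRNA-depleted ratios (1 against 1). The rRNA-depleted ratio lies within the grey bar for 12 rows and above it for both Sfpq rows (the share over all rows was not computed).

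The rRNA-depleted libraries put 3 member rows at 1.5-fold higher or more (Pspc1, Matr3 and Rnf112) and 2 at 1.5-fold lower or more (both rows of Sfpq), among 16286 rows of which 7.43% were higher and 13.4% lower by that much. The median log2 ratio was 0.22 over the member rows and -0.02 over all rows. Every member row called in poly(A) RNA had a ratio of the same sign in rRNA-depleted RNA, with 1 library per group and no test. The share of all called rows with the same sign was not computed, so whether the members stand out is not known. The labels do not say whether their RNA was that of a poly(A) replicate.

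Ordered by RPKM, the family changed place within the group. In Sfpq poly(A) libraries the order was Nono, Matr3, Pspc1, Dazap1, Rbm14, Ccar2, Malat1, Rnf112, Sfpq and Neat1, and the ranges of Dazap1 with Rbm14, Rnf112 with Sfpq and Sfpq with Neat1 overlapped. In Luc poly(A) libraries the order was Nono, Sfpq, Matr3, Dazap1, Pspc1, Rbm14, Malat1, Ccar2, Neat1 and Rnf112, and the ranges of Nono with Sfpq, Sfpq with Matr3, Rbm14 with Malat1 and Malat1 with Ccar2 overlapped. The overlaps named are those of neighbours in each order. Further apart, Rnf112 also overlapped with Neat1 in Sfpq libraries, and Rbm14 with Ccar2 in Luc libraries. These orders use the most abundant row of each gene, for Sfpq the noncoding NR_045010. Sfpq ranked 9 of 10 in Sfpq libraries and 2 of 10 in Luc libraries by that row, and 10 of 10 in Sfpq libraries and 3 of 10 in Luc libraries by its coding row NM_023603, through a change that its own siRNA was meant to cause.

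The preparation moved Malat1 most. Its rRNA-depleted level was 6.41 times the poly(A) mean in Sfpq cells and 4.86 times in Luc cells, which made it the most abundant of the 10 genes in both rRNA-depleted libraries. Neat1 did not share this: it stood at 1.37 times the poly(A) mean in Sfpq cells and 0.854 times in Luc cells, within the range of the poly(A) libraries in both. In Luc cells, 4 rows (Malat1 and the 3 of Dazap1) lay above the range of the poly(A) libraries and 8 below it. The share of all rows outside their own range was not computed, so these counts are not a result about the members. The median over all rows was -0.48 (Sfpq) and -0.42 (Luc) on the log2 scale, so a typical row also lay lower in rRNA-depleted RNA. After median-ratio scaling over the 8 libraries Matr3, Rnf112 and Ccar2 were no longer below but above their poly(A) means in both Sfpq and Luc cells. The same scaling turned Sfpq NR_045010 and Rbm14 in Sfpq cells and Neat1 in Luc cells from below to above, all of which lay within the poly(A) range. With 1 library of that kind per siRNA, preparation and library cannot be told apart.

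Other proteins found in paraspeckles, most of them RNA-binding proteins, moved in both directions. Of 40 tested genes in this list, 9 rose, 7 fell and 24 did not pass (limma), shares of 22.5% and 17.5% that lay near those of all tested rows (21.6% and 19.3%). The splicing regulators Hnrnph3 (log2 fold change 1.04, SE 0.15), Cirbp, a cold-induced RNA-binding protein (0.98, SE 0.13), and Rbmx (0.95, SE 0.10) had the largest rises, with limma adjusted p from 6.48e-05 to 0.000511. Enox1, a surface oxidase (-2.14, SE 0.15), Hnrnpf, a splicing regulator close in sequence to Hnrnph3 (-1.26, SE 0.10), and Fam53b (-1.02, SE 0.14) had the largest falls; Hnrnpf had limma adjusted p = 2.13e-05. Enox1 and Fam53b passed the filter of 0.5 RPKM only through the Luc libraries, so that they had to differ, and their falls are given as values. Enox1 averaged 0.126 ± 0.0301 RPKM in Sfpq and 2.29 ± 0.455 RPKM in Luc libraries, and Fam53b 0.163 ± 0.0433 RPKM in Sfpq and 0.851 ± 0.175 RPKM in Luc libraries (SD, n = 3 each). With a minimum mean of 2 RPKM, which neither reaches, 5 genes of the list fell, in a fit that called 2718 rows lower. Other genes of the list also miss that filter, so the 5 cannot be set against the 7 of 40. Hnrnpf averaged 48.0 ± 3.50 RPKM in Sfpq and 116 ± 8.67 RPKM in Luc libraries, and Hnrnph3 15.2 ± 2.49 RPKM in Sfpq and 7.09 ± 0.988 RPKM in Luc libraries (SD, n = 3 each). The median of the list was 0.14, against 0.05 over all tested rows. Without Luc replicate 3, 15 of these genes (37.5%) rose, in a fit that called 30.8% of all rows higher. Without Sfpq replicate 2, Sfpq replicate 3 or Luc replicate 1, 6 genes (15.0%) rose in each case, beside 13.5%, 14.4% and 15.1% of all rows in these 3 fits.

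Of 10 tested binding partners of the member proteins, 2 rose, 1 fell and 7 did not pass. These are 20% and 10% of the list, against 21.6% and 19.3% of all tested rows. Zfp326, which pairs with Ccar2 in human cells (0.50, SE 0.16, limma adjusted p = 0.0333), and the RNA-editing enzyme gene Adar (0.32, SE 0.11, limma adjusted p = 0.0417) rose, and Ncoa6, a coactivator that binds Rbm14 (-0.49, SE 0.10, limma adjusted p = 0.00441), fell. The row used for Zfp326 is a noncoding record. The rises numbered 0 without Sfpq replicate 2, Sfpq replicate 3 or Luc replicate 1, 1 without Luc replicate 2 and 6 without Luc replicate 3, while the rises among all rows also moved, between 13.5% and 30.8%.

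Of 16 tested nuclear speckle genes, the proteins of the body where Malat1 collects, 4 rose, 0 fell and 12 did not pass (limma; 5 rose and 0 fell at an unadjusted p under 0.05). Srrm1 (0.48, SE 0.13, limma adjusted p = 0.0127), Pnn (0.39, SE 0.13, limma adjusted p = 0.0415) and Srrm2 (0.35, SE 0.12, limma adjusted p = 0.0366), all linked to splicing, had the largest rises. The 25.0% that rose is near the 21.6% of all tested rows, and the 0 of 16 that fell stands beside 19.3% of all tested rows. Without any one of the same 3 libraries none of these genes rose, without Luc replicate 2 only 1 did (6.25%, beside 20.1% of all rows), and without Luc replicate 3 there were 9 (56.2%, beside 30.8% of all rows).

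**Figure D5:**
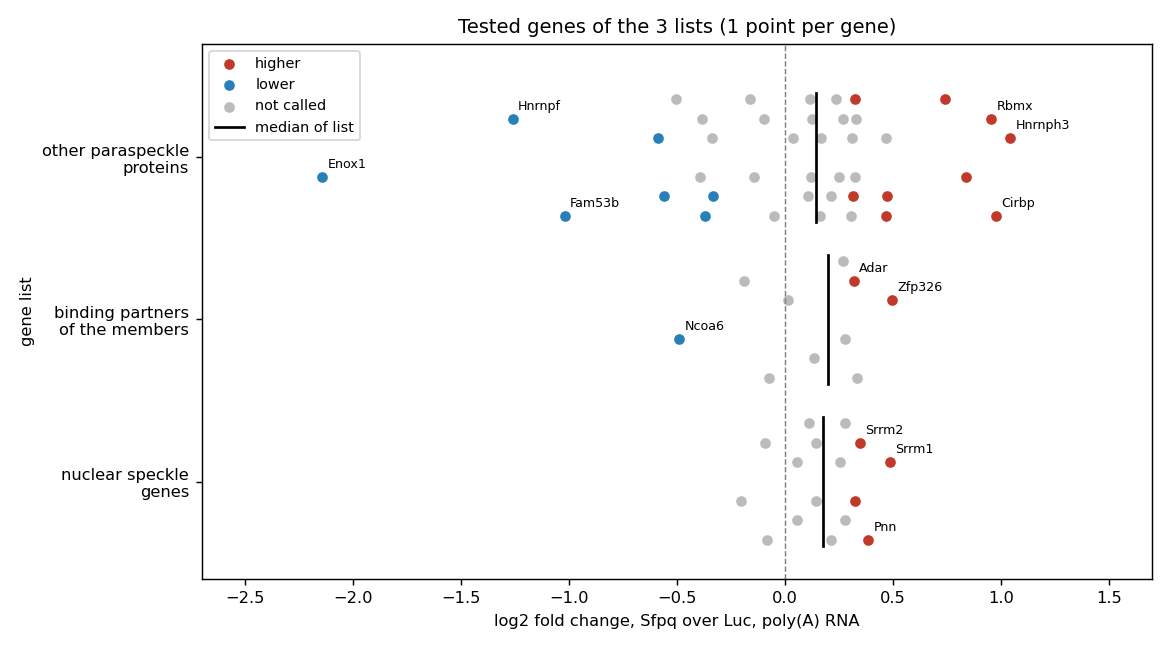
Log2 fold change of Sfpq over Luc in poly(A) RNA for the tested genes of 3 lists, 1 point per gene by its most abundant row (red called higher, blue called lower, grey not called; vertical spread only separates points); the black line is the list's median. The other paraspeckle proteins spread from -2.14 (Enox1) to 1.04 (Hnrnph3), and the other lists stay between -0.49 and 0.50.

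The genes whose profiles over the 6 poly(A) libraries were most like those of Sfpq, Pspc1 and Neat1 were found by the root mean square difference of log2 values, each centred on its own mean, and are named as a description. Nearest to Sfpq (NR_045010) were Tmem150c (0.12 log2 units), Clybl (0.16) and the RNA demethylase gene Fto (0.22). Fto had 1.61, 1.76 and 1.87 RPKM in Sfpq libraries, against 19.6, 20.8 and 21.4 RPKM in Luc libraries. Clybl had 0.106, 0.143 and 0.247 RPKM in Sfpq libraries, against 5.63, 5.29 and 7.73 RPKM in Luc libraries. It passed the filter of 0.5 RPKM only through the Luc libraries, so that it had to differ. At such low values the added 0.5 RPKM shrinks the fall, so the closeness of Clybl to Sfpq does not hold for plain RPKM. Tmem150c had 0.55, 0.65 and 0.86 RPKM in Sfpq libraries, against 11.05, 11.34 and 13.01 RPKM in Luc libraries. Its Sfpq values lay near the added 0.5 RPKM, so its fall is shrunk as well. Its place before Fto may therefore not hold for plain RPKM. Nearest to Pspc1 were the caspase gene Casp2 (0.04), the retinoblastoma-family gene Rbl1 (0.06) and the lipid kinase gene Pi4k2b (0.06). Casp2 had 19.9, 20.1 and 18.8 RPKM in Sfpq libraries, against 6.72, 6.38 and 8.24 RPKM in Luc libraries. Nearest to Neat1 were the ubiquitin ligase gene Rnf125 (0.17), Bcas3 (0.20) and the glycosyltransferase gene Mgat3 (0.21), which were thus less close than the neighbours of Pspc1.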

How the data were processed

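Each library has 1 file of RPKM per RefSeq record, deposited by the authors and named so per the file headers. The submitters' processing notes name TopHat2 2.0.10 and mouse build mm9. For the RPKM program, its annotation, use of strand and treatment of reads with several matches, nothing is given in the sources used here. Rows were named through a RefSeq table of GRCm38.p6 (98.5% of 30978 rows), used for names and neighbours. Depth was read from the RPKM steps of genes spanning under 2500 bases, at which 34 to 118 rows per library shared the value of 1 read; this step was added after the values were seen.

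Rows whose mean over the 6 poly(A) libraries reached 0.5 RPKM were tested with limma 3.58.1 (R 4.3.3; trended prior, log2(RPKM + 0.5)), Sfpq against Luc, with calls at p under 0.05 after Benjamini-Hochberg adjustment; this step was also tested on simulated data. Ratios and shares per library were compared with two-sided exact permutation tests in scipy 1.17.1 (Python 3.11.15). rRNA-depleted libraries, 1 per group, had no test. Groups and replicate numbers came from the sample titles; the description of 1 Sfpq library gives another number than its title. Named genes were all member rows, the 3 largest called rises and falls of each list and the 3 nearest profiles of Sfpq, Pspc1 and Neat1. Members and lists were chosen with earlier results of these data known. Alternatives were other pseudocounts, filters, scalings and units, limma without trend, a replicate block and leaving out each library. One gene of the marker lists is not reported here.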

Additional observations from a re-analysis of the deposited data

How the results depend on the processing

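Over the member rows and all poly(A) alternatives, 195 values kept their direction and side of the threshold, 20 lost the call, 1 gained it and 0 turned. Member rows called higher numbered 7, but 4 with no filter on low values, and 3 to 7 when 1 library was left out (4 without Sfpq replicate 3 or Luc replicate 1, 3 without Sfpq replicate 2); those called lower numbered 2 to 4. All rows higher numbered 2271 to 5170 and lower 2494 to 3890 when 1 library was left out, and median-ratio scaling gave 3358 higher and 3673 lower. Higher genes of the lists numbered, when 1 library was left out, 6 to 15 (other paraspeckle proteins), 0 to 6 (binding partners) and 0 to 9 (nuclear speckle); binding partners numbered 1 with no filter on low values and 4 with quantile normalization. The difference in share between Sfpq and Luc libraries was -36.1 percentage points for Sfpq and 13.6 for Nono; it was -33.5 and 11.4 when a gene's rows were averaged, and -30.1 and 8.94 with the highest coding row. Median-ratio scaling over the 8 libraries turned the log2 difference of rRNA-depleted from poly(A) level in Matr3 (0.44 in Sfpq, 0.16 in Luc), Rnf112 (0.152 in Sfpq, 0.0282 in Luc) and Ccar2 (0.0781 in Sfpq, 0.0258 in Luc). It also changed the sign for Sfpq NR_045010 in Sfpq (0.36, against -0.15 as deposited), Rbm14 in Sfpq (0.52, against -0.04) and Neat1 in Luc (0.26, against -0.20), which lay within the poly(A) range. The cause of these changes was not tested. Deviations of same-numbered libraries correlated at 0.319, -0.039 and 0.151, and not every library correlated best with its own number. These values cannot decide whether the numbers pair the samples, since the deviations of a group are tied together by its mean. A replicate block gave 3896 higher and 3446 lower rows, with 7 and 3 member rows among them. The counting error behind low rows cannot be given exactly, since transcript lengths were not used here.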
